A study of Mus musculus with 7 samples.

Results

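Transcripts of exocrine acinar cells were examined in messenger RNA libraries from pancreatic islets of 7 db/db mice. The 31 genes were a list of symbols with no threshold on their values: 11 proteases and protease precursors, 6 genes of lipid digestion, an amylase and a ribonuclease, 1 protease inhibitor, 4 proteins of the zymogen granule, 4 transcription factors, and 3 other genes. Genes of the Reg family were not in the list. All 31 were found among the 51912 gene identifiers of the count table. Treated mice were given adipsin, a complement protease, by an adeno-associated viral vector (AAV-Adipsin, 3 libraries), and the control mice green fluorescent protein by the same kind of vector (AAV-GFP, 4 libraries). All 7 mice carry the db/db genotype, which removes the functional leptin receptor and leads to obesity and diabetes, so none of the values describes a lean animal. Islets were taken 4 weeks after the vector and cultured for 12 hours before RNA extraction, and each library came from its own mouse per the series' design text. The sources used here state neither age, nor the promoter of the vector, nor how the islets were purified.

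Acinar cells make up most of the pancreas and surround the islets. They synthesise digestive enzymes, mostly as inactive precursors, store them in zymogen granules and release them into the ducts, and the enzyme messages are among the most abundant transcripts of the pancreas. A complex of Ptf1a and Rbpjl, together with Nr5a2 and Bhlha15 (also known as Mist1), drives this programme. Because islets are freed from the exocrine tissue by digestion and picking, islet preparations commonly hold some acinar transcripts. In bulk libraries such as these, fewer cells of a type and less RNA per cell cannot be told apart.

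Total counts ran from 29601707 to 43997400 per library. Cfd, the mouse adipsin gene, had 3965, 839 and 1481 counts in AAV-Adipsin and 1, 0, 0 and 0 counts in AAV-GFP, so the libraries followed their vector labels. Ins2, an insulin gene and the defining marker of the labelled tissue, took between 11.0% and 13.8% of the counts of a library. In the labels, replicate 1 of each group carries the name of its treatment as description (treatment-named) and the other 5 libraries carry a db number (db-numbered). What this difference stands for is not stated, and values within each style are given where they touch a result.

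The acinar genes together took between 0.351% and 2.23% of the counts of a library, a range of 6.37-fold. The share was 0.509%, 1.67% and 0.444% in the 3 AAV-Adipsin libraries, against 0.679%, 1.17%, 2.23% and 0.351% in the 4 AAV-GFP libraries. AAV-GFP replicate 3 was the highest library and AAV-GFP replicate 4 the lowest, so the whole range lay inside the control group, and the AAV-Adipsin values fell within it. The mean was 0.873% ± 0.687 (SD) over the 3 AAV-Adipsin libraries, against 1.11% ± 0.821 (SD) over the 4 AAV-GFP libraries, a difference of -0.23 percentage points that is smaller than either SD. Exact (Clopper-Pearson) 95% intervals of the single shares were no wider than 0.00462 percentage points to either side, which covers counting error only. Without AAV-GFP replicate 3 the difference in mean share was 0.14 percentage points, the other way round.

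**Figure D1:**
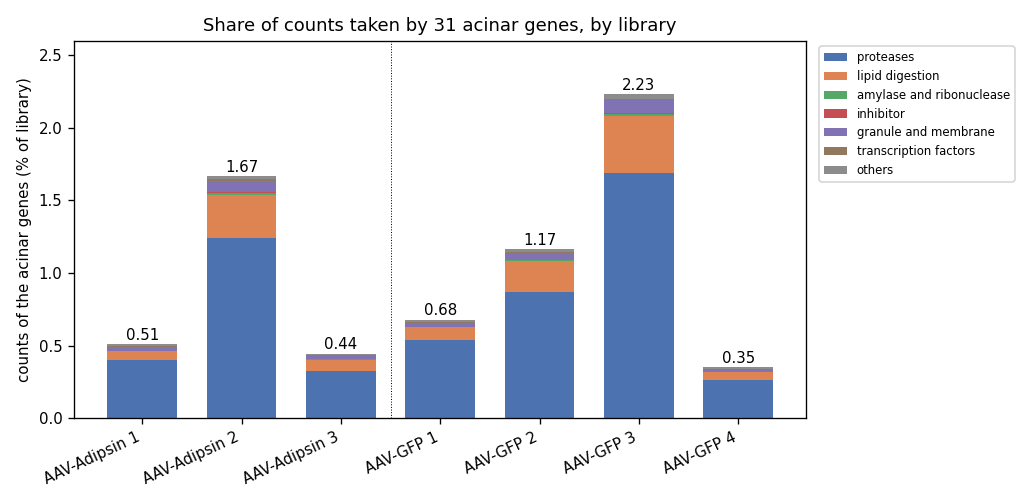
Percentage of all counts of a library taken by the 31 acinar genes, stacked by role, with 3 AAV-Adipsin libraries left of the dotted line and 4 AAV-GFP libraries right of it. The number above a bar is the total, which is highest in AAV-GFP 3 at 2.23% and lowest in AAV-GFP 4 at 0.35%.

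Proteases supplied most of these counts. They took 0.655% ± 0.510 (SD) of the counts over the 3 AAV-Adipsin libraries, against 0.841% ± 0.618 (SD) over the 4 AAV-GFP libraries. Ctrb1, chymotrypsinogen B, alone made up 27.9% to 37.3% of the acinar counts. This share was 37.3% and 35.8% in the treatment-named libraries, and 27.9% to 31.4% in the db-numbered ones. For the lipase Cel the styles lay the other way, at 3.14% and 3.08% against 4.28% to 5.06%. The cause of these differences was not tested. The level of Ctrb1 was 1887, 4762 and 1245 CPM (counts scaled to the size of the library) in AAV-Adipsin, against 2374, 3294, 6659 and 1122 CPM in AAV-GFP. AAV-GFP replicate 3 and AAV-Adipsin replicate 2 were high, AAV-GFP replicate 4 and AAV-Adipsin replicate 3 were low, and the groups overlapped. The log2 fold change was -0.35 (SE 0.70), with a 95% interval from -2.04 to 1.33. Per kilobase of exon Ctrb1 was also the most abundant member, at 3473 CPM per kilobase on average over the 7 libraries, ahead of the trypsinogen Prss2 at 1162, the trypsinogen Try5 at 636 and the granule protein syncollin (Sycn) at 489. In GRCm38 the gene Ctrb1 (ENSMUSG00000031957) occupies chr8:111686519-111691010, minus strand.

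Cela1, a pancreatic elastase, had the largest fitted difference among the abundant proteases. It stood at 291, 1307 and 388 CPM in AAV-Adipsin, against 610, 1098, 2208 and 275 CPM in AAV-GFP. The same libraries were high and low as for Ctrb1, except that AAV-Adipsin replicate 1 was lower than replicate 3. The log2 fold change was -0.66 (SE 0.83), and its 95% interval ran from -2.66 to 1.34. Prss2, an anionic trypsinogen, had 504, 1677 and 357 CPM in AAV-Adipsin and 610, 940, 2190 and 351 CPM in AAV-GFP, with a log2 fold change of -0.27 (SE 0.78). The carboxypeptidases, which trim amino acids from the end of a chain, were at -0.37 (SE 0.83) for Cpa1 and -0.34 (SE 0.92) for Cpb1. The elastases Cela2a and Cela3b were at -0.49 and -0.26, the trypsinogens Try4 and Try5 at -0.43 and -0.45, and the chymotrypsin-like protease Ctrl at -0.44.

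Ctrc, chymotrypsin C, which in the human pancreas degrades trypsinogen, departed from the other proteases in its level. It had 0.285, 0.983 and 0.275 CPM in AAV-Adipsin, against 0.756, 1.23, 2.03 and 0.552 CPM in AAV-GFP, or 11 to 78 counts in a library. AAV-Adipsin replicates 1 and 3 lay below all 4 AAV-GFP libraries, and AAV-Adipsin replicate 2 lay inside their range. Its log2 fold change was the largest in size among the members, at -1.18 (SE 0.60). The unadjusted p, 0.0801, was the smallest among the members, and it did not pass after adjustment over all genes (edgeR's quasi-likelihood test, adjusted p = 1.00). Between the treatment-named libraries log2 CPM differed by -1.25, and over the db-numbered ones by -1.01. In GENCODE release M21 the Ctrc gene, chr4:141814962-141846359, spans that of Cela2a, chr4:141814962-141826160, on the same strand. Cela2a had 4143 to 41582 counts per library, so the few counts of Ctrc are uncertain.

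Lipid-digesting enzymes took 0.146% ± 0.129 (SD) of the counts over the 3 AAV-Adipsin libraries, against 0.186% ± 0.153 (SD) over the 4 AAV-GFP libraries. Pnlip, the pancreatic triglyceride lipase, had 216, 1001 and 295 CPM in AAV-Adipsin, against 291, 797, 1266 and 184 CPM in AAV-GFP. Its log2 fold change was -0.33 (SE 0.83). Cel, the lipase activated by bile salts, was at -0.34 (SE 0.89), the lipase-related genes Pnliprp1 and Pnliprp2 were at -0.53 and -0.40, and Clps, the colipase that anchors Pnlip to fat droplets, was at -0.24. Pla2g1b, the secreted phospholipase A2 of the pancreas, was much weaker than the other lipid genes at 12.0 CPM per kilobase, against 56.1 for Pnliprp2 and 264 for Pnlip, and its log2 fold change was -0.39. In each of these 6 genes the highest library was AAV-GFP replicate 3 and the lowest AAV-GFP replicate 4.

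Rnase1, the pancreatic ribonuclease, spread further than most enzymes. It had 15.4, 133 and 23.3 CPM in AAV-Adipsin and 25.5, 67.7, 143 and 23.4 CPM in AAV-GFP, a range of 9.28-fold. AAV-Adipsin replicate 2 nearly reached AAV-GFP replicate 3 here, and the log2 fold change was -0.18 (SE 0.97). Spink1, the inhibitor that protects acinar cells from trypsin activated too early, had 11.7, 54.7 and 10.2 CPM in AAV-Adipsin against 19.2, 28.8, 66.3 and 13.1 CPM in AAV-GFP. Its log2 fold change was -0.32 (SE 0.81).

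The only amylase in the list, Amy2b, is annotated as an unprocessed pseudogene in GENCODE release M21. It had 1.68, 5.14 and 1.58 CPM in AAV-Adipsin against 2.45, 4.54, 8.80 and 1.10 CPM in AAV-GFP, with a log2 fold change of -0.61 (SE 0.71). These counts cannot be read as the amylase message of the samples. Among windows of 50 bases in the transcripts of the protein-coding genes Amy2a2, Amy2a3 and Amy2a4, 100% also occur in a transcript of another gene. These genes had 0 counts in every library. Amy2a5, with 53.5% of its windows shared, had 0 counts in every library too. Amy2a1 had 12 counts over all libraries. A count of 0 allows up to 3 counts, or 0.0682 to 0.101 CPM by library. For Amy2a2, Amy2a3 and Amy2a4 it gives no limit on expression if reads with several matches were not counted. For Amy2a5 only part of the windows is shared, and why it had 0 counts was not tested. The sources used here do not say whether reads with several matches were counted.

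The trypsinogens share sequence too. Of the 50-base windows in Try4 transcripts, 65.6% occur in another gene, most often Try5, and of those in Try5 47.6%, against 7.83% for Prss2. The share was 24.0% for Klk1, 40.2% for Amy2b, 19.2% for Cela3b, 17.7% for Ctrc and 15.6% for Cela2a. Reads of these genes can be lost or divided by the counting, so their single values are uncertain. The other 24 members, Prss2 included, shared less than 10% of their windows, and 20 shared none. Without Try4, Try5 and Prss2 the difference in summed share was -0.20 percentage points.

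Genes of the zymogen granule ordered the libraries much as the enzymes did. Sycn, syncollin, had 180, 504 and 117 CPM in AAV-Adipsin against 162, 294, 555 and 92.6 CPM in AAV-GFP, and its log2 fold change of -0.05 (SE 0.74) was the nearest to 0 among the members other than Bhlha15. Zg16, a granule lectin, had 21.5, 145 and 31.4 CPM in AAV-Adipsin and 38.7, 94.0, 183 and 21.5 CPM in AAV-GFP (log2 fold change -0.36, SE 0.94). Cuzd1, a granule membrane protein, had 4.51, 29.2 and 5.15 CPM in AAV-Adipsin and 6.11, 17.4, 41.1 and 4.86 CPM in AAV-GFP (-0.43, SE 1.00). Gp2, the major glycoprotein of the granule membrane, was at -0.25 (SE 0.81).

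The 4 transcription factors behaved in different ways. Ptf1a, the factor that defines the acinar lineage, was at 0.518, 1.81 and 0.525 CPM in AAV-Adipsin and at 0.534, 0.974, 4.21 and 0.379 CPM in AAV-GFP. It ranked the libraries much as the enzymes did, with AAV-GFP replicate 3 on top, on 11 to 162 counts per library, and its log2 fold change was -0.71 (SE 0.89). Rbpjl, its partner in the complex, had 0.389, 1.33 and 0.475 CPM in AAV-Adipsin against 0.311, 0.617, 1.74 and 0.517 CPM in AAV-GFP, on 14 to 67 counts (log2 fold change -0.15, SE 0.65). Nr5a2, a nuclear receptor of acinar and other endodermal cells, was at 1.37, 4.98 and 1.98 CPM in AAV-Adipsin and 1.60, 2.34, 3.27 and 2.38 CPM in AAV-GFP. It was highest in AAV-Adipsin replicate 2 and next highest in AAV-GFP replicate 3, and its log2 fold change was 0.20 (SE 0.43).

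Bhlha15 did not follow the other acinar genes. This basic helix-loop-helix factor of secretory cells stood at 77.3, 74.0 and 74.8 CPM in AAV-Adipsin, against 80.3, 78.5, 76.0 and 76.0 CPM in AAV-GFP. Its highest library was 1.09 times its lowest. The SD of its log2 CPM around the group means was 0.037, and 0.521% of the 16504 genes tested had an SD as small or smaller. Its log2 fold change was -0.04 (SE 0.07), with a 95% interval from -0.20 to 0.11, the narrowest among the members. Per kilobase Bhlha15 stood at 22.0 CPM, against 0.847 for Ptf1a, 0.434 for Nr5a2 and 0.134 for Rbpjl. It was the most abundant of the 4 factors on this scale.

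Gatm and Dpep1 departed as well. Gatm, which catalyses the first step of creatine synthesis, had 71.0, 42.6 and 43.6 CPM in AAV-Adipsin and 71.4, 48.3, 49.5 and 48.0 CPM in AAV-GFP, with a log2 fold change of -0.05 (SE 0.21). Its high libraries were AAV-Adipsin replicate 1 and AAV-GFP replicate 1, the 2 treatment-named libraries, whose mean log2 CPM was 0.62 above that of the other 5. Between the treatments, mean log2 CPM of Gatm differed by -0.17 over the db-numbered libraries and by -0.01 between the treatment-named ones. Dpep1, a membrane dipeptidase, was close to undetected, with 4, 16 and 19 counts in AAV-Adipsin and 5, 1, 3 and 24 counts in AAV-GFP. Its log2 fold change of 0.53 (SE 0.96) rests on these few reads. Klk1, tissue kallikrein, the third of the other genes, had 44.5, 173 and 45.9 CPM in AAV-Adipsin and 68.1, 136, 269 and 32.6 CPM in AAV-GFP, in the same order of high and low libraries as Cpa1.

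**Figure D2:**
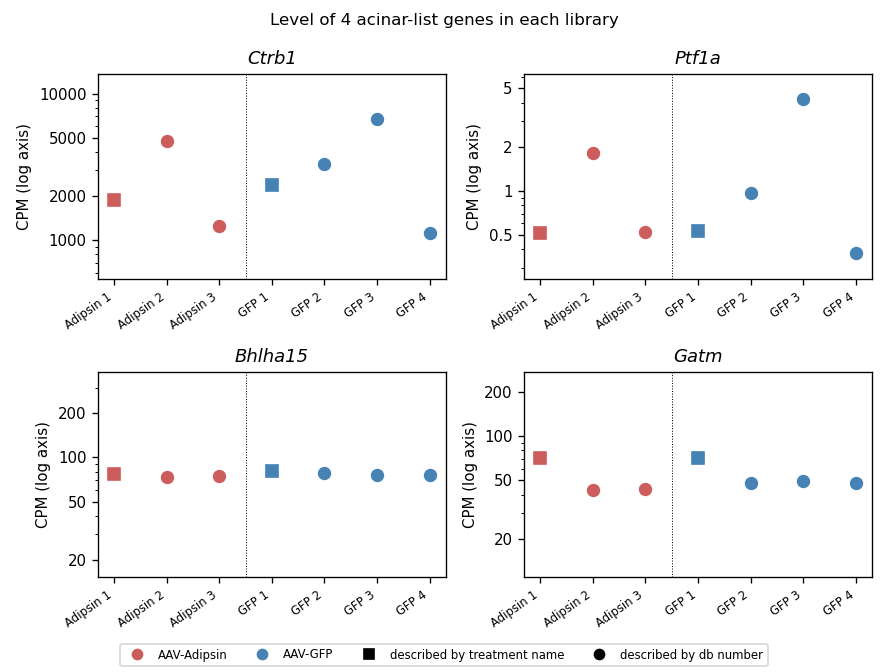
Level in CPM, on a log axis of equal span in each panel, of Ctrb1, Ptf1a, Bhlha15 and Gatm in the 3 AAV-Adipsin libraries (left of the dotted line) and 4 AAV-GFP libraries (right of it), with squares for the treatment-named libraries. Ctrb1 and Ptf1a are highest in AAV-GFP 3, Bhlha15 lies between 74.0 and 80.3 CPM throughout, and Gatm is highest in the 2 libraries drawn as squares.

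To describe how far the members vary together, each gene's log2 CPM was centred on its mean over the 7 libraries, and the median profile of the 30 other members was subtracted. For 27 of the 31 genes the SD over the libraries became smaller, and the exceptions were Bhlha15, Gatm, Nr5a2 and Dpep1. A gene that varies much less than the profile cannot meet this rule, whatever its order of libraries. Nr5a2 varied less than the enzymes, with an SD of 0.61, and rose by 0.41 log2 units per unit of the profile. Among the 27, the median SD over the 7 libraries was 1.11 log2 units before subtraction and 0.22 after it. Around the group means, the median SD of the 27 was 1.22, against 0.21 over all genes tested. Cpa1 had an SD of 1.14 over the 7 libraries, of which 0.11 was left, and Pnliprp2 one of 1.10, of which 0.11 was left. Ctrc and Rbpjl kept the most among the 27, at 0.56 each. All 27 were highest in AAV-GFP replicate 3, 20 were lowest in AAV-GFP replicate 4, and in all 27 the 3 highest libraries were AAV-GFP replicate 3, AAV-Adipsin replicate 2 and AAV-GFP replicate 2. Ratios of the highest to the lowest library ran from 5.51 for Cela3b to 11.1 for Ptf1a. The members share libraries and depth, so this common order describes these preparations and carries no test.

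**Figure D3:**
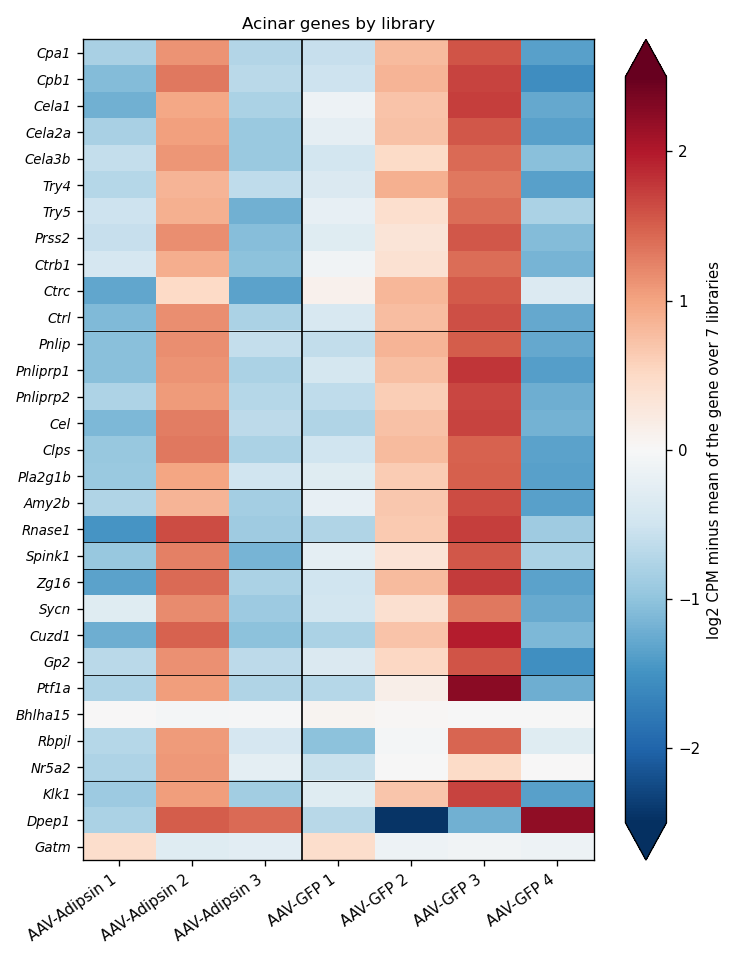
Log2 CPM of each acinar gene (rows, grouped by role with lines between groups) in each library (columns, AAV-Adipsin left and AAV-GFP right), minus the gene's mean over the 7 libraries. Most rows repeat one pattern, red in AAV-Adipsin 2, AAV-GFP 2 and AAV-GFP 3, while Bhlha15 is nearly white and Gatm and Dpep1 follow other patterns.

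**Figure D4:**
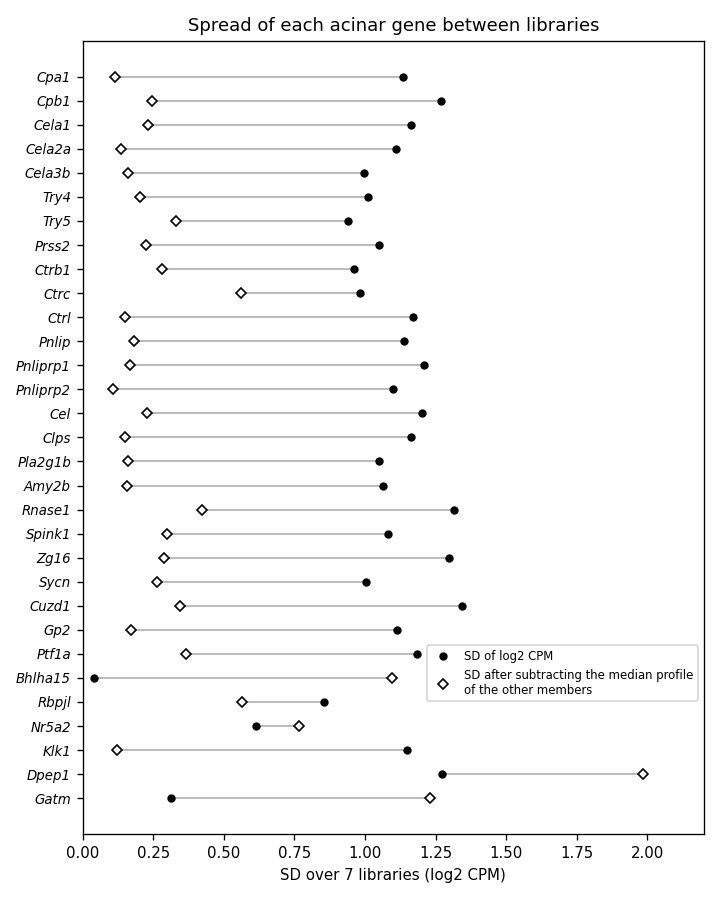
SD of log2 CPM over the 7 libraries for each acinar gene (filled circles) and the SD left once the median profile of the other members is subtracted (open diamonds). For 27 genes the diamond lies left of the circle, and for Bhlha15, Nr5a2, Dpep1 and Gatm it lies right of it.

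The promoters of 6 members are shown because they hold, or lack, the letters bound by the Ptf1a complex. That complex recognises an E-box and a second box, named TC box, and these were searched on both strands as CACCTG and TTTCCC in windows from 250 bases before to 50 bases after the start site (RefSeq, GRCm38.p6). The windows are written 5′ to 3′ in the direction of the gene, and capitals mark the E-box and the TC box, as CAGGTG and GGGAAA where they lie on the opposite strand. The first 4 genes belong to the 27 that vary together and were picked because they hold both boxes. The last pair, Bhlha15 and Gatm, are not among the 27.
Cela1 (chr15:100687871-100688170, minus strand): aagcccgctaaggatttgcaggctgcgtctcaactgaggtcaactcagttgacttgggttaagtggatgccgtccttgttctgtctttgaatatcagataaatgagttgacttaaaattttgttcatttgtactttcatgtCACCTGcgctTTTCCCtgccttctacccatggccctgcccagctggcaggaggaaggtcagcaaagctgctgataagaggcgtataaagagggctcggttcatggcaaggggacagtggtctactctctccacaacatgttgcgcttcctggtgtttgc
Cela2a (chr4:141825956-141826255, minus strand): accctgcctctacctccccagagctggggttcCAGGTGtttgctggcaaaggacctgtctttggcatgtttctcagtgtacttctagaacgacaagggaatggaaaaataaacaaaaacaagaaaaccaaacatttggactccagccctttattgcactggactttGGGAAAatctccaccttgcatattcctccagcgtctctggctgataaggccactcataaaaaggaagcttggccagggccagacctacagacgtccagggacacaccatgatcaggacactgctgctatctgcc
Prss2 (chr6:41521526-41521825, plus strand): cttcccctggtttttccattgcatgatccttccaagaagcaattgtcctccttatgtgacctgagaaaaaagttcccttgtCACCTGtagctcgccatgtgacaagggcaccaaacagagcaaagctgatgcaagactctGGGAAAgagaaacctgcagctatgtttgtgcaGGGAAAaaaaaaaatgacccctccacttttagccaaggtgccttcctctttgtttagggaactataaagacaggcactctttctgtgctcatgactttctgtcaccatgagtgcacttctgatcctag
Cel (chr2:28563354-28563653, minus strand): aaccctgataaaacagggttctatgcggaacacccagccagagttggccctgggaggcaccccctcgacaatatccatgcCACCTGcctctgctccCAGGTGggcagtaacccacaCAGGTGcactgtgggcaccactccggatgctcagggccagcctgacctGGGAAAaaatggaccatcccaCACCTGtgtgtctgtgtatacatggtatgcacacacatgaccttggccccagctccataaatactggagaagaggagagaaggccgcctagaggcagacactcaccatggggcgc
Bhlha15 (chr5:144190036-144190335, plus strand): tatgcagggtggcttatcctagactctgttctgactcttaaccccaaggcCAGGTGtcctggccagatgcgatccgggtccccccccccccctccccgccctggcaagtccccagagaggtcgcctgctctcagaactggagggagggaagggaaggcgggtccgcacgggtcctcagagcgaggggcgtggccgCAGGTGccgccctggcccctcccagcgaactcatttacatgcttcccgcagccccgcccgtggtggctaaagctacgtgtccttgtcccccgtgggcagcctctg
Gatm (chr2:122611228-122611527, minus strand): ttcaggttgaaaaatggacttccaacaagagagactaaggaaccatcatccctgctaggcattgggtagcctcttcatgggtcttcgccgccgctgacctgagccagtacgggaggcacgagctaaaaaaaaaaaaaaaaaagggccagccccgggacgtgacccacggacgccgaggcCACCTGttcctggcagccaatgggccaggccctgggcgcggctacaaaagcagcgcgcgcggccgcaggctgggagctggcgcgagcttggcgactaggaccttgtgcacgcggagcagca

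Cela1 holds both boxes in the same direction with 4 bases between them, an arrangement present in 0.0152% of the 32851 promoter windows of the table. Only this spacing, the one Cela1 has, was counted, and no other member had it. Any exact spacing is rare, so this share does not measure how unusual the site is. Cela2a, Prss2 and Cel hold both boxes further apart. Bhlha15 and Gatm hold the E-box and no TC box in this window. No matches overlapped each other. Of the 26 members with a promoter in the table, 15 had the E-box, or 57.7%, against 20.2% of all windows, and 8 had the TC box, or 30.8%, against 25.2%. A member was counted once if any window of it held the box, whereas the share over the table counted single windows. The shares of members and of windows are therefore not in the same unit. Both boxes occurred in 6 members, or 23.1%, against 4.86% of all windows. Of the 22 covarying members with a window, 12 had the E-box (54.5%), 7 the TC box (31.8%) and 5 both (22.7%), shares close to those of all 26 members. Nr5a2, which is not one of the 27, was among the 6 members with both boxes, with Amy2b, Cel, Cela1, Cela2a and Prss2. A match in these letters is a description and does not show that the complex binds there.

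All 31 acinar genes passed the filter on low counts. Between the treatments, 0 of the 31 passed an adjusted p of 0.05 in edgeR's quasi-likelihood test, where 0.00606% of the 16504 genes tested passed (1 gene, Cfd). At an unadjusted p under 0.05 the count was 0 of 31, against 1.16% of all genes. DESeq2 called 0 of 31, against 0.0243% of the genes it tested. No member had groups that did not overlap, against 2.73% of all genes. The median log2 fold change of the 31 was -0.35, against -0.01 over all genes tested, and 29 were below 0, against 53.8% of all genes. The members vary together across libraries, so these signs are not independent observations. Without AAV-GFP replicate 3 the median was 0.26, and 3 members were below 0. It was -0.05, with 18 below 0, without AAV-Adipsin replicate 1, and -0.03, with 20 below 0, without AAV-Adipsin replicate 3. Removal of AAV-Adipsin replicate 2 gave -1.31, removal of AAV-GFP replicate 1 gave -0.57, that of replicate 2 gave -0.29 and that of replicate 4 gave -0.67.

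These libraries leave room for sizeable differences in either direction. For 28 of the 31 genes the 95% interval of the log2 fold change reached below -1, and for 28 it reached above 1. The median width of the interval was 3.91 log2 units over the members, against 0.69 over all genes tested. The p values therefore do not show that the acinar genes were equal between the treatments. Within description styles, the median difference of the 27 covarying genes was -0.43 log2 CPM between the treatment-named libraries and -0.18 over the db-numbered ones. Over both treatments, these genes had a lower mean log2 CPM in the treatment-named libraries, by -1.57 (Rnase1) to -0.36 (Ctrb1). The mean over the 27 was 5.32 and 5.77 in the treatment-named libraries, within the 5.04 to 7.79 of the db-numbered ones. The cause of this difference was not tested. The interaction of treatment and description style passed for 0 of 31 members in edgeR, where 0% of the 16504 genes passed. At an unadjusted p under 0.05 it was 0 of 31 members and 135 of all genes.

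**Figure D5:**
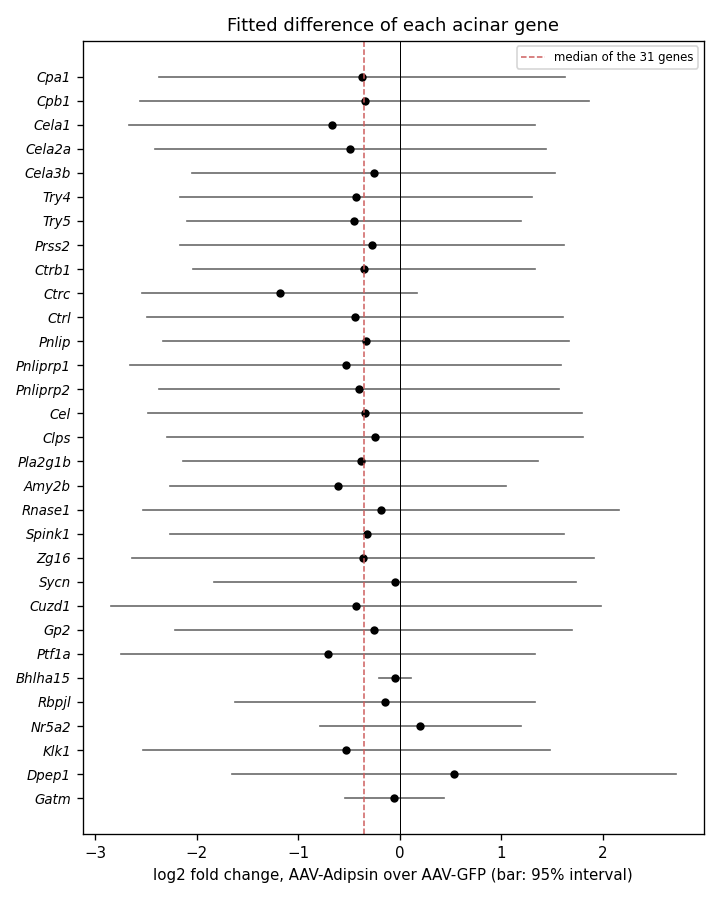
Log2 fold change of AAV-Adipsin over AAV-GFP for each of the 31 acinar genes with its 95% interval from edgeR, and the median of the genes as a dashed line. Every interval covers 0, and those of Bhlha15 and Gatm are the narrowest.

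A second list of acinar genes divided in the same way. Of 17 genes listed, 14 were tested, 0 passed in edgeR (0 at an unadjusted p under 0.05), and 13 were below 0 with a median log2 fold change of -0.41. For 9 of the 14 the SD became smaller when the profile of the 27 genes was subtracted, against 0.765% of the 16473 genes that are not members. Most genes vary too little to meet this rule, with a median SD around the group means of 0.21 over all genes tested. The 0.765% is therefore not a measure of how many genes share the order of libraries. Dmbt1, a secreted scavenger receptor of exocrine and other epithelia, had 90.9, 527 and 146 CPM in AAV-Adipsin and 72.6, 342, 1001 and 161 CPM in AAV-GFP. The cholecystokinin receptor Cckar had between 0.172 and 5.06 CPM, with the same library on top. The secretory genes Xbp1, Reep5 and Tmed6 varied by 1.39-fold, 1.25-fold and 1.60-fold. The trypsinogens Prss1 and Prss3, which share 54.9% and 66.1% of their 50-base windows with other genes, did not follow the enzymes either. Prss1 had 4.77, 6.69 and 11.0 CPM in AAV-Adipsin and 12.5, 20.9, 13.9 and 5.59 CPM in AAV-GFP.

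Markers of other cells met the rule of a smaller SD less often, and their part in the acinar values was not tested. The summed level of 8 duct genes ran from 1510 to 2137 CPM in AAV-Adipsin and from 1512 to 2050 CPM in AAV-GFP, and the SD of 1 of the 8, Muc1, became smaller when the acinar profile was subtracted. Muc1 and Krt19 were nonetheless highest in AAV-GFP replicate 3 and AAV-Adipsin replicate 2, as the enzymes were. The corresponding count was 0 of 6 islet hormone genes, 0 of 7 stellate, 0 of 5 endothelial, 0 of 5 macrophage and 0 of 2 tested lymphocyte genes. Over the 7 libraries the SD was 0.14 (Ins2) to 0.59 (Ppy) for hormones and 0.16 (Cdh5) to 0.45 (Plvap) for endothelial genes. Genes that vary this little can hardly meet the rule, so their counts do not show whether they share the order of libraries. The stellate gene Col1a1, with an SD of 1.29, varied enough to meet it. Stellate genes summed to between 153 and 204 CPM in AAV-Adipsin and between 93.3 and 334 CPM in AAV-GFP, highest in AAV-GFP replicate 4, the library lowest in acinar share. Macrophage genes summed to between 67.6 and 185 CPM in AAV-Adipsin and between 57.4 and 92.1 CPM in AAV-GFP, highest in AAV-Adipsin replicate 2. Endothelial genes summed to between 372 and 461 CPM in AAV-Adipsin and between 307 and 496 CPM in AAV-GFP, and the islet hormones to between 171061 and 213146 CPM in AAV-Adipsin and between 180897 and 210602 CPM in AAV-GFP. Of 5 lymphocyte genes 1 was at 0 in every library, and the sum was at most 6.63 CPM in AAV-Adipsin and 3.30 CPM in AAV-GFP.

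The genes outside the list whose level over the 7 libraries was most like that of the enzymes included further acinar genes. Likeness was measured as the root mean square distance of the centred log2 CPM from the median profile of the 6 members with the most counts (Ctrb1, Prss2, Cela1, Try5, Pnlip and Cpa1), over 11980 protein-coding genes with a mean log2 CPM of at least 1. A gene with no variation would lie at 0.97 log2 units. Among the nearest 12 were Cabp2, a calcium-binding protein, at 0.21, Erp27, a protein of the endoplasmic reticulum, at 0.23, Tff2, a trefoil peptide, at 0.24, and 2210010C04Rik at 0.26. Further away were Reg1 at 0.28, Krt23 and Amy1 at 0.31 each, the gap junction gene Gjb2 at 0.31, the integrin Itgb4 and the stress protein Nupr1 at 0.35 each, and the trypsinogen Try10 at 0.38. Nupr1 was the most abundant of the 12, with 516, 863 and 354 CPM in AAV-Adipsin and 543, 697, 1435 and 331 CPM in AAV-GFP, a range of 4.34-fold. None of the 12 passed between the treatments (edgeR, adjusted p = 1.00 for each).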

How the data were processed

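The authors deposited 1 table of raw read counts per Ensembl gene with a column per library, used here as deposited. The submitters' processing notes name STAR and the build mm10 (GRCm38), and the labels' protocols name a kit that keeps the strand of messenger RNA. The sources used here give no version of STAR, counting program, strand setting or annotation release. Of 51912 identifiers, 51633 were matched to GENCODE mouse release M21 for symbols, coordinates and exon lengths. All 7 libraries were used.

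Genes were filtered with filterByExpr and fitted across the whole table with edgeR 4.0.16 (TMM scaling, robust quasi-likelihood, R 4.3.3). P values are two-sided, with Benjamini-Hochberg adjustment over 16504 genes and a threshold of 0.05. CPM is scaled by TMM, and log2 CPM used for spread and profiles carries a prior count of 2. A positive fold change means higher in AAV-Adipsin. The fit was checked on simulated counts. DESeq2 1.42.0, other scaling and filters, a replicate block, description style as a batch and removal of libraries were the alternatives. The members and lists were chosen with earlier results of these data known. Values per library are given for the most abundant members per role, the transcription factors, and the members with extreme spread or the smallest p. Further members and genes were named after their values were seen. Members with the same libraries are not replicates, and the mice are the unit throughout. Of the 12 genes nearest to the enzymes, 1 is not reported here.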

Additional observations from a re-analysis of the deposited data

Results flagged for a closer look

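In the AAV-GFP group Gatm was 71.4 CPM in replicate 1, far from the other 3 libraries, which lay between 48.0 and 49.5 CPM. This library is treatment-named, and so is AAV-Adipsin replicate 1, where Gatm was also high at 71.0 CPM. The part of description style in this value was not tested. Gatm was the only 1 of the 31 acinar genes with such an outlying library in AAV-GFP. By chance the rule flags about 1 in 20 genes, so 1 of 31 is no more than chance gives.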

How the results depend on the processing

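No acinar gene passed in any of the 14 alternatives. At an unadjusted p under 0.05 there were 2 of 31 with the replicate block, against 1109 of 16504 genes. Removal of AAV-Adipsin replicate 2 gave 1 of 31, against 92 of 16865 genes. Removal of AAV-GFP replicate 4 gave 1 of 30, against 570 of 16321 genes, and the other alternatives gave 0. Over all genes 1 passed in edgeR and 4 with DESeq2. None passed without a filter on low counts (0, with 448 at an unadjusted p under 0.05) or without the 2 treatment-named libraries (0, with 492). Removal of single libraries gave 0 to 1, and 0 without AAV-Adipsin replicate 3 or any of the 4 AAV-GFP libraries (124 to 570 at an unadjusted p under 0.05). The mice share replicate numbers across the groups, but the labels do not pair them, and the deviations of equal numbers correlated at r = 0.66, -0.01 and 0.01, so the numbers were not taken to pair the samples. Replicate 1 of each group correlated best with its own number, and the other libraries did not. With a replicate block 1 gene passed over all genes (1109 at an unadjusted p under 0.05) and the median of the acinar genes was -0.75. Removal of single libraries moved that median between -1.31 and 0.26, and the difference in summed share between -0.63 and 0.14 percentage points. Of the 31 acinar genes, 28 changed sign without at least 1 library, 26 of them without AAV-GFP replicate 3. Without 1 library at a time, the log2 fold change ran from -1.30 to 0.26 for Cpa1, -1.47 to 0.34 for Cpb1, -1.62 to 0.0031 for Cela1, -1.41 to 0.11 for Cela2a, -1.15 to 0.35 for Cela3b, -1.13 to 0.0185 for Try4, -1.26 to 0.10 for Try5, -1.24 to 0.42 for Prss2, -1.10 to 0.22 for Ctrb1 and -1.50 to 0.19 for Ctrl. It ran from -1.31 to 0.25 for Pnlip, -1.55 to 0.21 for Pnliprp1, -1.27 to 0.33 for Pnliprp2, -1.44 to 0.38 for Cel, -1.35 to 0.34 for Clps, -1.18 to 0.22 for Pla2g1b, -1.37 to 0.0458 for Amy2b, -1.74 to 0.56 for Rnase1 and -1.53 to 0.33 for Spink1. For the remaining genes it was -1.67 to 0.36 for Zg16, -0.89 to 0.55 for Sycn, -1.84 to 0.45 for Cuzd1, -1.13 to 0.45 for Gp2, -1.55 to 0.58 for Ptf1a, -0.88 to 0.60 for Rbpjl, -0.51 to 0.53 for Nr5a2, -1.48 to 0.16 for Klk1 and -0.33 to 0.12 for Gatm. Apart from these, Sycn was at 0.034 with description style as a batch and Rnase1 at 0.013 without the 2 treatment-named libraries. Ctrc stayed below 0 without any 1 library (-2.01 to -0.74), as did Bhlha15 (-0.06 to -0.02), and Dpep1 stayed above 0 where it was tested. The cause of these changes was not tested. Depth does not limit the abundant enzymes. Dpep1, Rbpjl, Ctrc and Ptf1a had the fewest counts, and for Ctrc the overlap with Cela2a also leaves the counts uncertain. Amy2b, Nr5a2 and Pla2g1b were also low, with 32, 53 and 77 counts in their lowest library. The other 24 members had at least 100 counts in each library.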
